A study of Mus musculus with 6 samples.

Results

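The 10 genes described here take tryptophan to nicotinamide adenine dinucleotide (NAD) or rebuild NAD from its parts: Afmid, Kmo, Kynu, Haao, Acmsd, Qprt, Nadsyn1, Nampt, Nmnat1 and Nmnat3. They were chosen by gene symbol. Each of the 10 has 1 transcript cluster, the array's unit of measurement for a gene, that carries its symbol alone, and all 10 lay above the filter on low values among the 22086 genes tested. Whole-kidney total RNA came from female mice that all carry the transgene named Pkd1 miR, an RNA interference model of polycystic kidney disease. The metformin group (3 mice) received metformin, a biguanide drug used in diabetes, by injection into the peritoneum at 150 mg per kg per day, and the saline group (3 mice) received saline. Both were treated from postnatal day 35 to day 63, the age at which kidneys were taken. Each of the 6 mice has 1 array. No mouse without the transgene is among the samples, so levels of Pkd1 (7.57, 7.58 and 7.34 with metformin, 6.70, 7.16 and 6.67 with saline) do not check the groups. Every metformin value of Pkd1 lay above every saline value, as in 17.8% of all genes tested, and the cause was not tested. The sources used here do not name the promoter that drives the transgene. The question is what long treatment with metformin alters in the RNA of these kidneys.

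In the kynurenine route, a dioxygenase opens the tryptophan ring and the enzymes of Afmid, Kmo, Kynu and Haao then work in sequence. HAAO makes an unstable product at a branch point: left alone it closes to quinolinate, which QPRT feeds towards NAD, while ACMSD diverts it to a breakdown route that yields energy. NAD is also rebuilt from nicotinamide, with NAMPT as the rate-limiting enzyme. The NMNAT enzymes join the last nucleotide in every route, and NADSYN1 adds the amide where the precursor is an acid. The liver and the proximal tubule of the kidney are the tissues best known for the whole kynurenine route.

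In metformin kidneys 7 of the 10 transcripts fell and 0 rose (0 higher at an unadjusted p under 0.05, limma). These were all 6 genes of the kynurenine route (Afmid, Kmo, Kynu, Haao, Acmsd and Qprt) and 1 of the 4 genes of NAD assembly and salvage, Nmnat1. Nadsyn1, Nampt and Nmnat3 did not pass the test. The test was limma, a linear model fitted to log2 values of all genes, and a call means a Benjamini-Hochberg adjusted p under 0.05. Among all 22086 genes, 15.8% were called in either direction, 9.08% lower and 6.71% higher, and 32.1% had an unadjusted p under 0.05. The change, metformin minus saline in log2 units, lay below 0 in 10 of the 10 genes, against 47.1% of all genes. Its median was -0.72 over the 10 genes and 0.02 over all genes tested. The values of metformin and saline arrays did not overlap in the 7 genes called, all lower with metformin, whereas 37.3% of all genes were separated in either direction and 19.4% in that one. In whole-kidney RNA, fewer cells of a type and less RNA per cell cannot be told apart.

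Promoter sequences are shown for 3 of the genes because their base composition differs widely: Kmo and Haao, which fell by at least 1 log2 unit, and Nampt, which did not pass the test. They come from RefSeq on build GRCm38.p6, run 5′ to 3′ from 250 bases before to 50 bases after a gene's start, and capitals mark each C followed by G. The windows are chr1:175631943-175632242 on the plus strand for Kmo, chr17:83846741-83847040 on the minus strand for Haao and chr12:32820085-32820384 on the plus strand for Nampt.
Kmo: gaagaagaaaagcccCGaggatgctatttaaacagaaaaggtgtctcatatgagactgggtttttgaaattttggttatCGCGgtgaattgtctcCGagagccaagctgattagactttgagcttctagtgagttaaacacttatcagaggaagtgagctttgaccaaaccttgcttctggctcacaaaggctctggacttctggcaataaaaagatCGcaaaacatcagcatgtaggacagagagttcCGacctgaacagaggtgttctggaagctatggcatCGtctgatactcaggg
Haao: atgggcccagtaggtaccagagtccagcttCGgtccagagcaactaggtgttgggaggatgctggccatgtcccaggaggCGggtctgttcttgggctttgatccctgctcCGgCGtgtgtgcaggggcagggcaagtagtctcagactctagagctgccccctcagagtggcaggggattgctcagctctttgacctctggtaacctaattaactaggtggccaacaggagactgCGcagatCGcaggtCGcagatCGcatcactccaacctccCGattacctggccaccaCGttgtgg
Nampt: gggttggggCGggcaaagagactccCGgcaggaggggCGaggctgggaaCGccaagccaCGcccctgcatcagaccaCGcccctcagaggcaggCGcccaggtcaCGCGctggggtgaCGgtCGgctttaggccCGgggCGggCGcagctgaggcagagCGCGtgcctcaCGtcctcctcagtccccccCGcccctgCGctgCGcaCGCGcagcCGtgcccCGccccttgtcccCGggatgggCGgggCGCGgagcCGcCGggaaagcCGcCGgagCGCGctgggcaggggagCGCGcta
Kmo holds 7 such CG pairs in its window, Haao 10 and Nampt 36, where the median over 32851 mouse promoters of the same length is 7 (quartiles 3 and 20). The GC content was 44.3% for Kmo, 58.7% for Haao and 76.3% for Nampt, with a median of 52.7% over all promoters. Promoters of 8 genes of the pathway, matched by symbol, were searched. Of these, the others that fell had 7 (Qprt), 18 (Afmid) and 28 (Nmnat1) CG pairs, and the others that did not pass had 13 (Nmnat3) and 27 (Nadsyn1), so the 2 sets overlap. Searched on both strands, GTTAAT (an HNF1 half-site) was found once, in Haao, as its reverse complement ATTAAC beginning at position -41 from the start, and 7.1% of all promoters hold it. CACGTG (the E-box), TATAAA (the TATA box) and the DR1 direct repeat bound by HNF4 and PPAR receptors were found in none of the 9 windows searched, 2 of them for Nmnat1, and are held by 7.15%, 13.6% and 0.0396% of all promoters. None of the 4 motifs can match within another, and an absent motif says only that its letters are not in this window.

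Afmid encodes the formamidase that turns formylkynurenine into kynurenine. Its values were 7.79, 8.22 and 8.14 on metformin arrays 1 to 3, against 8.95, 8.72 and 9.02 on saline arrays 1 to 3. Every metformin value lay below every saline value, by at least 0.50. The fall was 1.80-fold, with a log2 change of -0.85 ± 0.14 (SE) and a limma adjusted p = 0.0133.

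Kmo, the mitochondrial monooxygenase that makes 3-hydroxykynurenine, had values of 10.84, 11.60 and 11.47 in metformin kidneys, against 12.44, 12.28 and 12.52 in saline kidneys. The 3 saline values spanned 0.24, and the metformin values spanned 0.76 because array 1 was low. Kmo fell 2.16-fold (log2 change -1.11 ± 0.20 SE, limma adjusted p = 0.0147).

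Kynu encodes kynureninase, which cuts 3-hydroxykynurenine to 3-hydroxyanthranilate. It stood at 8.58, 8.81 and 9.17 in metformin kidneys and at 9.81, 9.49 and 10.10 in saline kidneys, without overlap. The fall was 1.93-fold, at -0.95 ± 0.20 (SE) log2 units (limma adjusted p = 0.0223).

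Haao, the dioxygenase that opens the ring of 3-hydroxyanthranilate, had values of 10.16, 10.87 and 10.87 with metformin, against 11.76, 11.35 and 11.85 with saline. Metformin arrays 2 and 3 had nearly the same value and array 1 lay lower. Haao fell 2.03-fold, a log2 change of -1.02 ± 0.22 (SE; limma adjusted p = 0.0255).

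Acmsd, the decarboxylase at the branch point, changed most of the 10 genes and varied most within each group. Its values were 10.76, 11.57 and 12.06 in metformin kidneys, against 13.45, 12.71 and 14.39 in saline kidneys. The groups were separated by 0.65, between metformin array 3 and saline array 2, while the saline values alone spanned 1.68. The mean was 11.46 ± 0.65 with metformin and 13.52 ± 0.84 with saline (SD, n = 3 per group). The fall was 4.14-fold, at -2.05 ± 0.46 (SE) log2 units (95% interval -3.12 to -0.98, limma adjusted p = 0.0274). By size it ranked 13th among the 22086 genes counted from the most negative change, with Kmo at 255, Haao at 356 and Kynu at 456.

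Qprt, the transferase that takes quinolinate to nicotinic acid mononucleotide, stands on the NAD side of the same branch. Its values of 7.45, 7.69 and 7.69 in metformin kidneys lay below those of 8.27, 7.91 and 8.39 in saline kidneys. The gap between the groups was 0.22, the narrowest among the 7 genes called. Qprt fell 1.496-fold, at -0.58 ± 0.14 (SE) log2 units, with the highest adjusted p of the 7 (limma adjusted p = 0.0367).

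**Figure D1:**
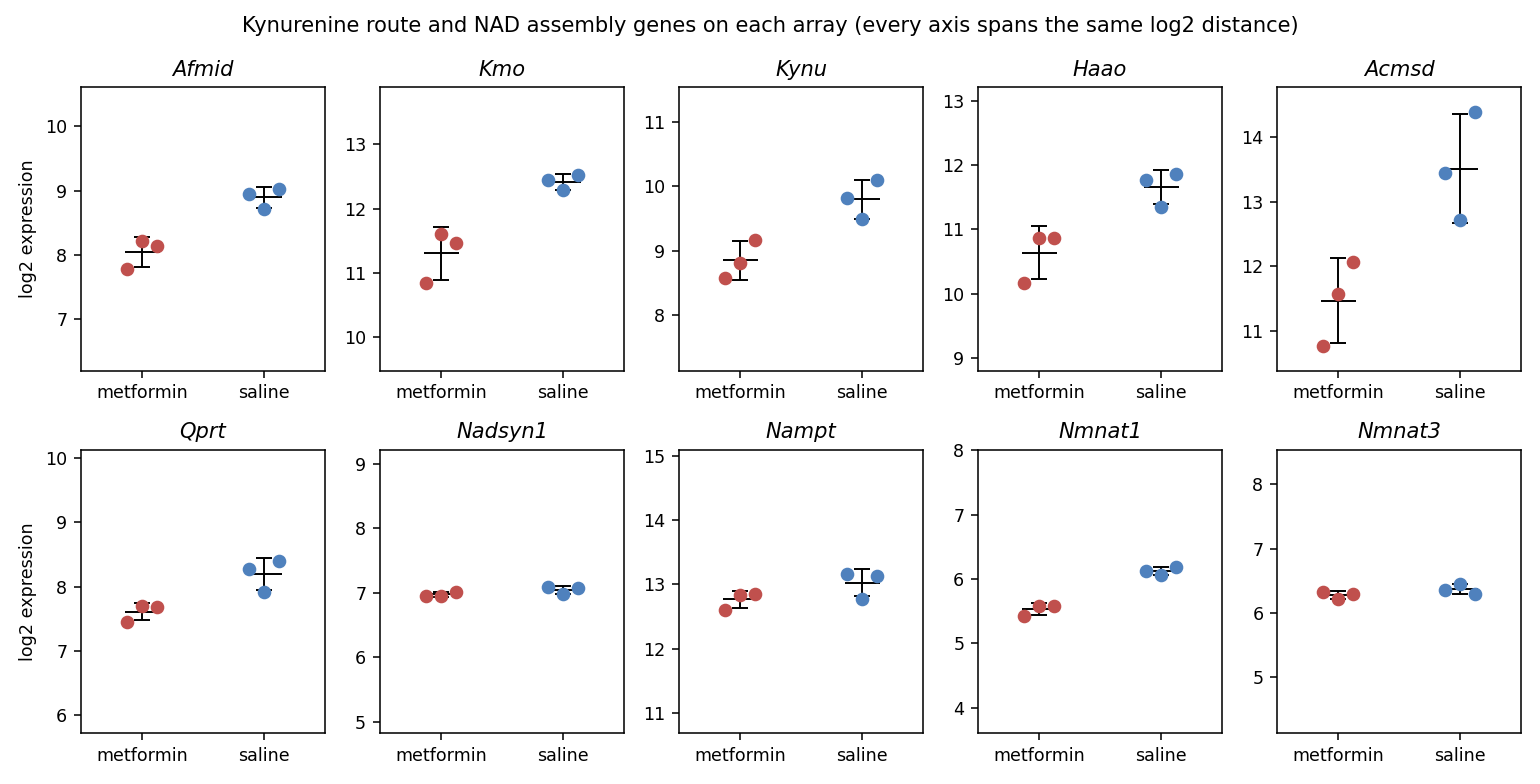
Log2 expression of the 10 genes on each of the 6 arrays (points; metformin left, saline right), with the mean and SD of each group (n = 3); every panel spans the same log2 distance, but the levels of different genes are not comparable. All metformin points lie below all saline points for Afmid, Kmo, Kynu, Haao, Acmsd, Qprt and Nmnat1, and the groups overlap for Nadsyn1, Nampt and Nmnat3.

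Nadsyn1, the NAD synthetase that adds the amide, stood at 6.96, 6.95 and 7.02 in metformin kidneys and at 7.09, 6.97 and 7.08 in saline kidneys. The groups overlapped, and the change was -0.07 (95% interval -0.28 to 0.13; limma adjusted p = 0.613). Nampt, which recycles nicotinamide, had values of 12.61, 12.84 and 12.85 with metformin, against 13.17, 12.78 and 13.14 with saline. Saline array 2 lay within the metformin values, and the change was -0.26 (95% interval -0.58 to 0.05; limma adjusted p = 0.229). Neither interval excludes a modest fall, and that of Nampt reaches almost as far as the change of Qprt.

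The NMNAT genes are a nuclear and a mitochondrial form. Nmnat1, the enzyme of the nucleus, had values of 5.42, 5.58 and 5.58 in metformin kidneys, against 6.13, 6.07 and 6.19 in saline kidneys. It fell 1.51-fold, at -0.60 ± 0.09 (SE) log2 units, and had the smallest adjusted p of the 10 genes (limma adjusted p = 0.0109). Nmnat3, the enzyme assigned to mitochondria, stood at 6.32, 6.21 and 6.30 with metformin and at 6.36, 6.45 and 6.29 with saline. Its groups overlapped, with a change of -0.09 (95% interval -0.30 to 0.12; limma adjusted p = 0.558). Quantile normalization gave Nmnat3 a change of -0.29 (limma adjusted p = 0.0445), a setting under which the median of all genes was -0.10. The difference Nmnat1 minus Nmnat3 within an array was -0.75 ± 0.14 with metformin and -0.24 ± 0.14 with saline (SD, n = 3 per group). These differ by -0.51 (exact permutation test, two-sided p = 0.1, the smallest that 3 arrays against 3 allow). This pair was chosen after the values were seen.

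**Figure D2:**
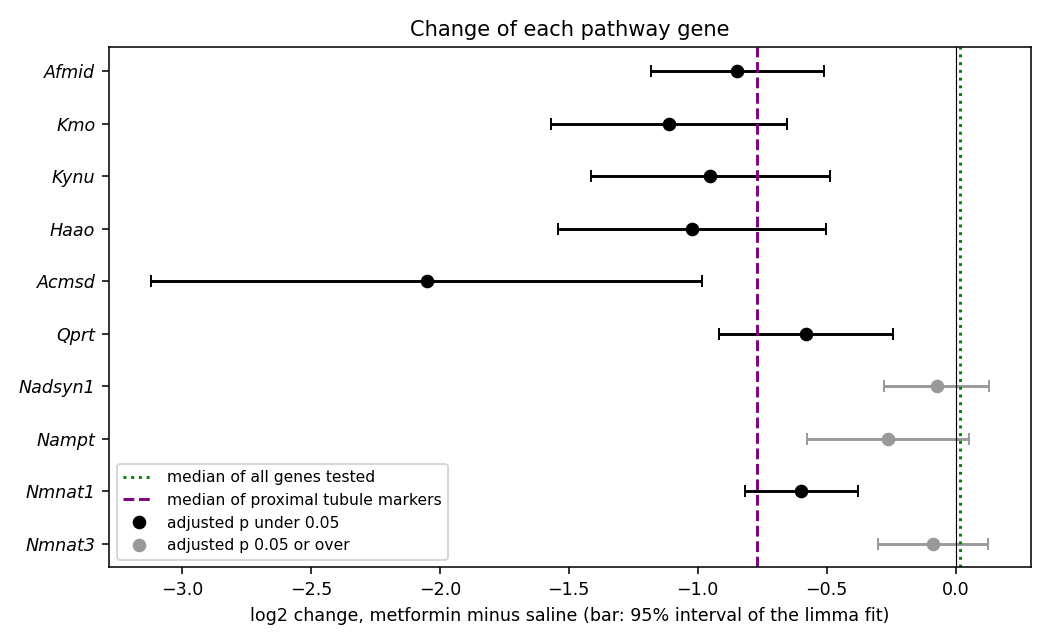
Log2 change of each gene, metformin minus saline, with the 95% interval of the limma fit; black points passed the adjusted p threshold of 0.05 and grey points did not. The dotted line is the median of all genes tested (0.02) and the dashed line the median of 23 proximal tubule markers (-0.77); Acmsd at -2.05 lies farthest to the left.

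Whether Acmsd changed more than its pathway neighbours was asked by subtracting each of the 9 other genes from Acmsd within an array. Acmsd was singled out with its change known to be the most negative of the 10, which fixes the sign of all 9 mean differences, so they are given as a description of size. Only the change of such a difference carries information, since 2 probe sets have no common scale. Acmsd minus Qprt was 3.31, 3.88 and 4.37 on metformin arrays 1 to 3, against 5.18, 4.80 and 5.999 on saline arrays 1 to 3. The metformin values lay below the saline values throughout, and the means differed by -1.47 ± 0.47 (SE, n = 3 per group). The exact two-sided permutation p was 0.1, the smallest this test can give with 3 arrays against 3, so it cannot pass 0.05 here. Over all 9 differences the change ran from -0.94 (Acmsd minus Kmo) to -1.98 (Acmsd minus Nadsyn1). Metformin and saline values did not overlap in 8 of the 9, each with an exact permutation p = 0.1 (0.113 after Benjamini-Hochberg adjustment over 9). All 9 differences share the values of Acmsd, so they are not 9 independent comparisons, and the count of 8 is a description too. Acmsd minus Kmo overlapped between the groups (exact permutation p = 0.2, and 0.2 after adjustment). Between the route from tryptophan and the salvage route, Qprt minus Nampt changed by -0.32 ± 0.05 (SE), with -5.16 ± 0.01 in metformin kidneys and -4.84 ± 0.08 in saline kidneys (SD, n = 3 per group; exact permutation p = 0.1). That pair too was chosen after the values were seen.

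**Figure D3:**
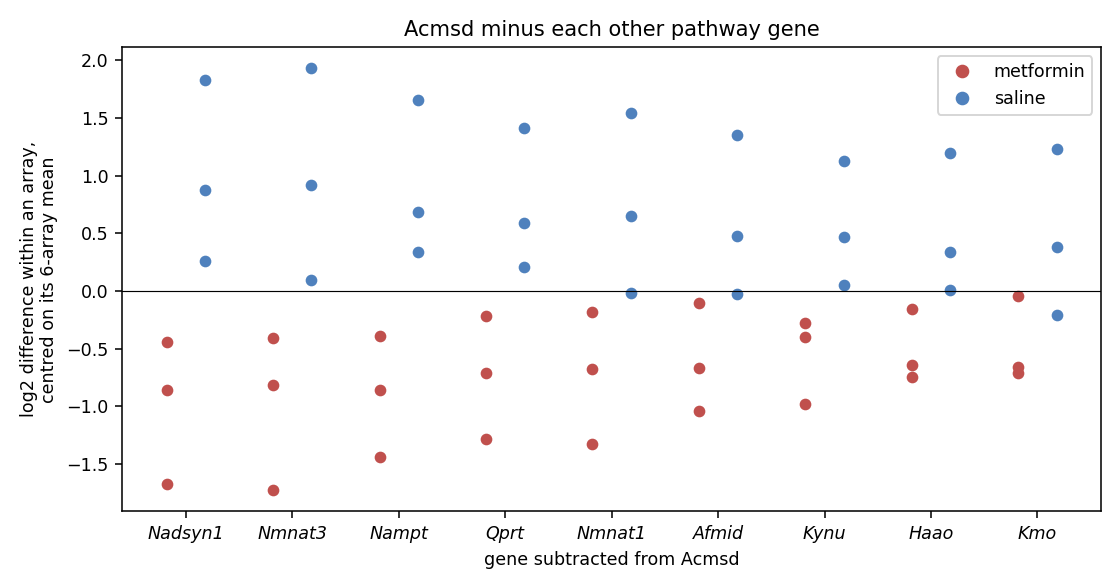
Acmsd minus each of the 9 other genes within an array, in log2 units centred on the mean over the 6 arrays (metformin points left, saline points right in each pair). Metformin points lie below saline points for 8 of the 9 genes, and the sets overlap for Kmo.

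The 5 named genes outside the pathway whose values over the 6 arrays ran closest to those of Acmsd were Slc22a22, Egfl6, C8a, Lpl and Slc18a1. Closeness was the root mean square distance between values centred on each gene's mean, in log2 units, and it was 0.27, 0.33, 0.35, 0.35 and 0.38 in that order. Slc22a22, an organic anion transporter that carries prostaglandins in mouse, had values of 9.74, 10.37 and 10.66 in metformin kidneys, against 11.94, 11.11 and 12.51 in saline kidneys. Because these genes were selected for values that run like those of Acmsd, their order of arrays and their direction follow from the selection, and their changes are a description with no test. The changes were -1.60 for Slc22a22, -1.77 for Egfl6, a secreted protein with EGF repeats, and -1.56 for the vesicular monoamine transporter Slc18a1. The complement gene C8a had a change of -1.40 and the lipoprotein lipase gene Lpl of -1.42.

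The calls rested on single arrays to different degrees. Leaving out saline replicate 1 kept only Nmnat1 among the 7 calls (limma adjusted p = 0.0466). Without metformin replicate 2, Kmo, Afmid and Nmnat1 stayed, and without metformin replicate 1 these and Haao. Leaving out saline replicate 3 ended the calls of Haao and Qprt, and leaving out metformin replicate 3 that of Qprt. All 7 calls stayed without saline replicate 2. The adjusted p of Acmsd ranged from 0.0134 to 0.0909 over these 6 fits, with changes of -2.45 to -1.61, and that of Qprt reached 0.125. In all 6 fits the change lay below 0 in 10 of the 10 genes. Blocking on replicate number kept the same 7 calls.

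Deviations from each gene's mean show how the arrays differ. Metformin array 1 was the lowest array for 8 of the 10 genes, and saline array 3 was the highest for 7. The median deviation of the 10 genes was -0.57, -0.25 and -0.23 on metformin arrays 1 to 3, and 0.42, 0.19 and 0.52 on saline arrays 1 to 3. Saline array 2 was the lowest saline array for 9 of the 10 genes. Markers of the proximal tubule gave the same order of arrays within metformin and within saline. Their mean deviation was -0.73, -0.30 and -0.07 on metformin arrays, and 0.34, 0.15 and 0.60 on saline arrays.

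Of 26 proximal tubule markers 23 were tested, and 9 fell and 0 rose, where 9.08% of all genes were called lower. At an unadjusted p under 0.05 (limma) 20 were lower and 0 higher, where 3777 of all 22086 genes were lower and 3303 higher. The groups did not overlap in 19 of the 23, all lower with metformin, as in 19.4% of all genes. All 23 changes lay below 0, with a median of -0.77. Of the 3 with the highest array signal, which does not rank their abundance, the organic anion transporter Slc22a8 fell by 0.83, while the phosphate carrier Slc34a1 had a change of -0.29 (limma adjusted p = 0.131) and the fatty acid transporter Slc27a2 of -0.14 (limma adjusted p = 0.381). The mean log2 level of the list ran from 13.8 to 14.4 on metformin arrays and from 14.7 to 15.1 on saline arrays. A change more negative than that of Acmsd or of Kmo was found in 0 of the 23 markers, more negative than that of Haao in 4, of Kynu in 5 and of Afmid in 8. For Kmo this was close to a tie: the marker Slc7a9 had a change of -1.110, against -1.111 ± 0.196 (SE) for Kmo. For Qprt and Nmnat1 the number was 17 each, for Nampt 21, for Nmnat3 22 and for Nadsyn1 23. With the marker score as a term in the fit, the changes of the 10 genes ran from -0.46 (Kmo) to 0.10 (Nampt), with Acmsd at -0.23 ± 0.31 (SE; limma adjusted p = 0.810). In that fit 0 of the 10 genes passed (1 at an unadjusted p under 0.05, limma), and 1 of all 22086 genes did (3148 at an unadjusted p under 0.05). Because score and treatment correlated at -0.842 over the arrays, proximal tubule content and metformin cannot be told apart in that model.

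**Figure D4:**
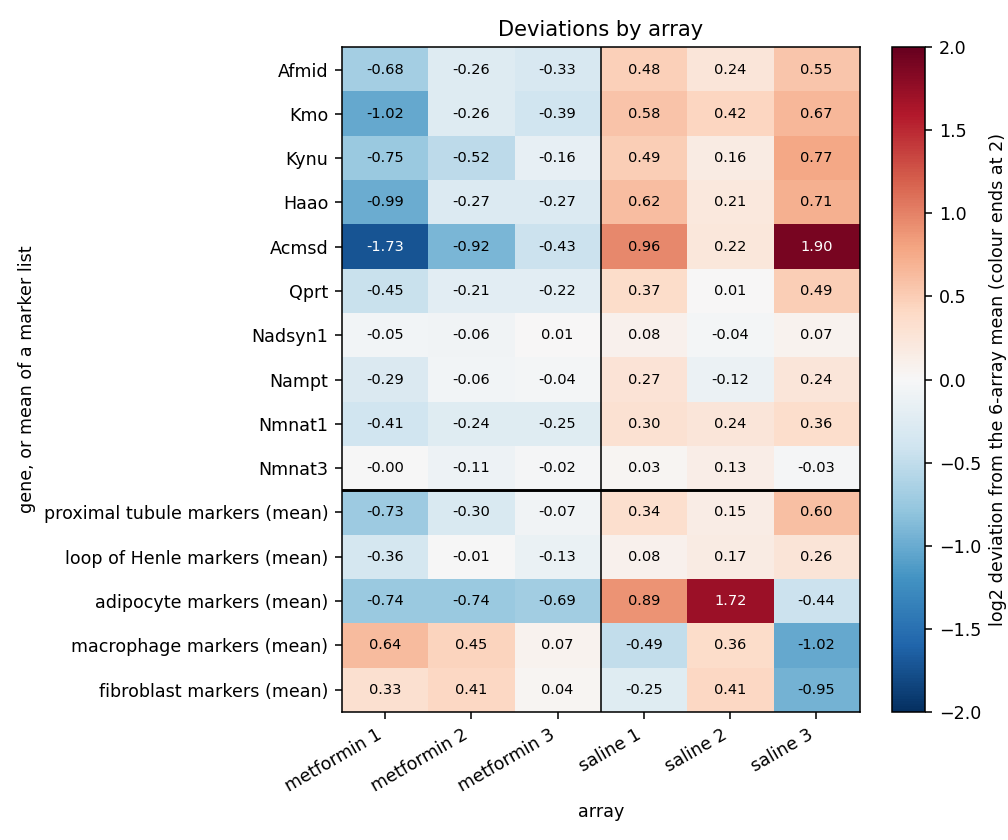
Deviation of each gene from its mean over the 6 arrays, and the mean deviation of 5 marker lists, in log2 units (blue below, red above; metformin arrays left, saline arrays right). Metformin array 1 and saline array 3 hold the extremes for most of the 10 genes and for the proximal tubule markers. The macrophage markers have their extremes on the same 2 arrays in the opposite direction (0.64 and -1.02), and the adipocyte markers run otherwise.

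Other cell types that express parts of the route were read in the same way. Macrophages express Kynu and Kmo, and of 10 macrophage markers 1 rose, lysozyme Lyz2, and the others did not pass. However, 4 of the 10 were higher at an unadjusted p under 0.05 (limma), and all 10 changes lay above 0, with a median of 0.62. Over all 22086 genes, 3303 were higher and 3777 lower at that unadjusted threshold. Lyz2 had values of 14.14, 14.01 and 13.98 in metformin kidneys, against 11.81, 13.27 and 11.09 in saline kidneys (limma adjusted p = 0.0337). The mean deviation of the 10 macrophage markers was 0.64, 0.45 and 0.07 on metformin arrays and -0.49, 0.36 and -1.02 on saline arrays, which overlap. Neutrophils express Nampt, and none of the 3 neutrophil markers tested passed (limma; 1 higher at an unadjusted p under 0.05), while 4 of the 7 listed lay below the filter. Of 9 adipocyte markers 1 fell, the hormone Adipoq (-1.32), but 8 were lower at an unadjusted p under 0.05 (limma) and all 9 changes lay below 0. Their median was -1.32, with mean deviations of -0.74, -0.74 and -0.695 on metformin arrays and 0.89, 1.715 and -0.44 on saline arrays. Saline array 2 was thus high for fat markers and low for the pathway genes among saline arrays, and saline array 3 was low for fat markers and high for the pathway genes. With the adipocyte score in the fit, which correlated with treatment at -0.756, 5 of the 7 calls stayed, and Kmo and Haao had limma adjusted p = 0.0509 and 0.0507. Acmsd then had a change of -3.16 (limma adjusted p = 0.0267). The adipocyte score hardly varied over the metformin arrays, so its term in the fit rests almost wholly on the 3 saline arrays. Fat content and metformin cannot be told apart in that model. Liver is the other main site of the route, and of 3 hepatocyte markers tested 1 fell, albumin Alb (-1.51), at a list median of -0.89.

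Of 5 loop of Henle markers 1 fell, the potassium channel Kcnj1 (median of the list -0.14). At an unadjusted p under 0.05 (limma) 2 of the 5 were lower. The 3 with the highest array signal, Umod (-0.14), Slc12a1 (-0.06) and Egf (-0.63), did not pass. Of 10 markers of distal tubule and collecting duct 3 fell, the water channel Aqp3 and the anion exchangers Slc4a1 and Slc26a4 (median -0.54). Before adjustment (limma unadjusted p under 0.05) 6 of the 10 were lower, and 2 changes lay above 0. Highest in signal were Slc12a3 (0.12), Hsd11b2 (-0.45) and Calb1 (-0.54), which did not pass. Over all genes, 9.08% were called lower. None of 4 podocyte markers (limma; 0 at an unadjusted p under 0.05) or 5 endothelial markers (limma; 1 lower at an unadjusted p under 0.05) was called, with medians of -0.03 and -0.21. Of 6 fibroblast markers the collagen gene Col1a1 rose (1.65), while 4 changes lay above 0 and 2 below, with a list median of 0.71. The proteoglycan gene Dcn had a change of -0.58 (limma adjusted p = 0.277) and Lum of -0.52 (limma adjusted p = 0.149). The part of these cell types in the changes of the 10 genes was not tested beyond the fits with a score.

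Around the 10 genes, 72 others of tryptophan and NAD metabolism were listed, of which 58 were tested, 6 lay below the filter and 8 were not analysed here. Of the 58, 22 fell, 1 rose and 35 did not pass, with a median of -0.48. The shares over all genes, against which this count and those of the single lists below stand, were 9.08% lower and 6.71% higher. At the entry of the route, Ido2, a paralog of indoleamine dioxygenase, fell 1.57-fold, with 5.59, 5.62 and 5.85 in metformin kidneys and 6.28, 6.10 and 6.63 in saline kidneys (limma adjusted p = 0.0322). Tdo2, the dioxygenase of liver, and Ido1 lay below the filter. Among the transaminases that lead kynurenine aside, 1 of 4 fell, the mitochondrial aspartate transaminase Got2 (-0.68, limma adjusted p = 0.0193). Kyat3 had a change of -0.95 (limma adjusted p = 0.0978, or 0.0452 when blocked on replicate number).

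Past the ACMSD branch, 6 of the 7 genes listed fell, where 9.08% of all genes were called lower. The values of all 7 were separated between groups, lower with metformin, as were those of 19.4% of all genes. Aldh8a1, the dehydrogenase that acts directly on the ACMSD product, fell most, 2.74-fold. Its values were 13.72, 14.07 and 14.51 in metformin kidneys, against 15.67, 15.25 and 15.75 in saline kidneys (-1.46 ± 0.22 SE, limma adjusted p = 0.00978). Gcdh, which handles glutaryl-CoA, fell by 0.92, Acat1 by 0.89, Echs1 by 0.75 and Hadh by 0.53 on the log2 scale. Acat1, Echs1 and Hadh also serve fatty acid or ketone metabolism, and Hibch, which fell by 0.71, is known from valine breakdown. The remaining gene, Dhtkd1, the 2-oxoadipate dehydrogenase, had a change of -0.63 (limma adjusted p = 0.0536, or 0.0452 when blocked).

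Among 6 other genes of NAD supply tested, 3 fell. Naprt, which salvages nicotinic acid, had 6.92, 7.18 and 7.05 in metformin kidneys and 7.80, 7.64 and 7.55 in saline kidneys (-0.62, limma adjusted p = 0.0156). Nmrk1, the kinase for nicotinamide riboside, fell by 0.77 and the NAD kinase Nadk by 0.47. The transhydrogenase Nnt had a change of -0.64 (limma adjusted p = 0.0603, or 0.0237 when blocked). Of 4 genes that clear nicotinamide none passed (limma; 1 lower at an unadjusted p under 0.05): the methyltransferase Nnmt had a change of 0.02 and the aldehyde oxidase Aox1 of 0.04, and both were below 0 under another scaling. Aox3 stood at -0.25 and Cyp2e1 at -0.55 (limma adjusted p = 0.259, or 0.0324 when blocked). Mean levels with metformin and with saline were 4.40 and 4.37 for Nnmt, 4.71 and 4.67 for Aox1 and 4.37 and 4.61 for Aox3. Those of Cyp2e1 were 13.91 and 14.46. Nnmt, Aox1 and Aox3 thus lay not far above the filter on low values (4.03), and their small changes say little about nicotinamide clearance.

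Of 16 NAD-consuming genes 3 fell, 1 rose and 12 did not pass. Nudt12, a hydrolase of NADH, fell by 1.18, the ectonucleotidase Nt5e by 0.85 and the cyclase relative Bst1 by 0.70. Parp4, the vault-associated ADP-ribosyltransferase, rose 1.51-fold, with 10.46, 10.39 and 10.25 in metformin kidneys and 9.68, 9.93 and 9.70 in saline kidneys (limma adjusted p = 0.0164). Enpp3, an ectonucleotide pyrophosphatase, had a change of -0.79 (limma adjusted p = 0.0748, or 0.0211 when blocked). All 6 sirtuins tested missed the threshold, at changes from -0.33 (Sirt2) to -0.02 (Sirt1). Among them, Sirt2 (limma unadjusted p = 0.0420) and Sirt5 (-0.25, limma unadjusted p = 0.0433) were lower before adjustment.

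On the side of tryptophan that leads to amines, 2 of 5 genes fell. Ddc, the aromatic amino acid decarboxylase, fell 2.88-fold, with 9.46, 10.06 and 10.19 in metformin kidneys and 11.62, 10.84 and 11.84 in saline kidneys (limma adjusted p = 0.0173). Monoamine oxidase Maob fell by 0.79 (limma adjusted p = 0.00978), while Maoa had a change of -0.11 and Aanat, which acetylates serotonin, of 0.13. The mean level of Aanat, 4.32 with metformin and 4.19 with saline, lay not far above the filter on low values (4.03). The tryptophan hydroxylases Tph1 and Tph2 lay below the filter. Transport genes fell in 4 of 7. The aromatic amino acid exporter Slc16a10 fell 2.51-fold, with 10.10, 10.59 and 10.80 in metformin kidneys and 11.88, 11.70 and 11.89 in saline kidneys (limma adjusted p = 0.00782). The apical importer Slc6a19 fell by 1.33, and Slc7a8 and its partner chain Slc3a2 by 0.78 and 0.79. Slc22a13, a nicotinate carrier known from human cells, had a change of -1.14 (limma adjusted p = 0.0505, or 0.0429 when blocked).

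Of 8 regulators tested 2 fell. Ppara, a nuclear receptor whose ligands are known to lower Acmsd in rat liver, fell by 1.05 and the clock repressor Nr1d1 by 1.08 on the log2 scale. Hnf4a, a factor of proximal tubule identity, had a change of -0.51 (limma adjusted p = 0.0689), Ppargc1b of 0.20 and Ppargc1a, a coactivator tied to kidney NAD synthesis, of 0.11 (limma adjusted p = 0.584). Of the 23 calls in these lists, Aldh8a1, Maob and Slc16a10 stayed in each of the 6 fits that left out 1 array. Leaving out saline replicate 1 kept 4 of the 23, metformin replicates 1 or 2 kept 8 each, saline replicate 3 kept 13, metformin replicate 3 kept 18 and saline replicate 2 kept 21. With the proximal tubule score in the fit 0 of the 23 stayed, and with the adipocyte score 8.

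**Figure D5:**
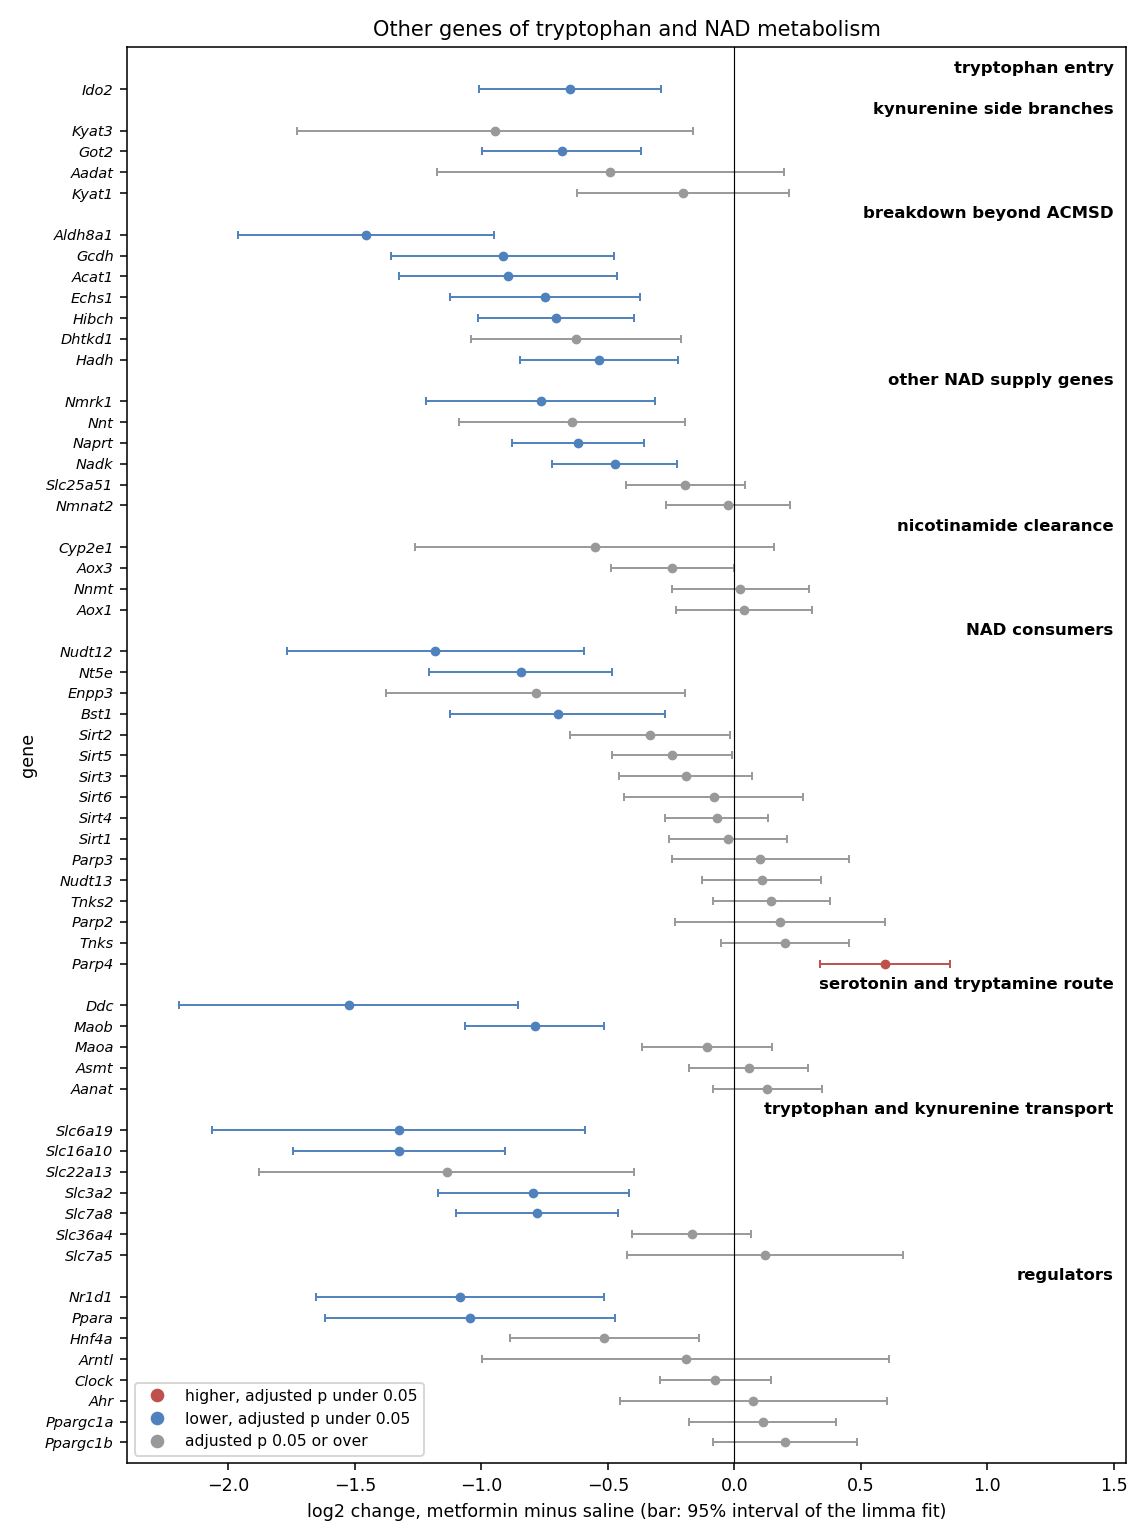
Log2 change, metformin minus saline, of the 58 other genes tested, grouped by role and sorted by size, with the 95% interval of the limma fit; blue points fell, the red point (Parp4) rose, and grey points did not pass the adjusted p threshold of 0.05. Of the 22 blue points, 6 lie among the genes of breakdown beyond ACMSD and 4 among those of transport.

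Over the whole table, 1483 genes were called higher and 2006 lower, against 913 and 2713 after centring each array on its median and 993 and 3806 after quantile normalization. The 7 calls of the pathway and their direction stayed under both scalings. Array medians lay between 4.73 and 4.86 for metformin and between 4.67 and 4.74 for saline, and correlations across clusters were 0.984 to 0.996. The labels name no batch.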

How the data were processed

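RNA from 6 snap-frozen kidneys was isolated with TRIzol and biotin-labelled (GeneChip WT PLUS), per the labels' protocols. The authors deposited a log2 value for every transcript cluster. Their processing notes list RMA and version 4.0 of Transcriptome Analysis Console. The sources used here give neither the RMA variant nor the genome build. Values reach 19.9, more than a 16-bit scanner records, so fold changes hold on the deposited scale only.

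Of 65956 clusters, 30604 carry 1 platform symbol, updated through Entrez numbers with RefSeq (GRCm38.p6). The 33.3% with the lowest mean over all arrays (at or under 4.03) were left out and the highest-mean cluster per symbol was kept, which gave 22086 genes. They were fitted with limma 3.58.1 in R 4.3.3 (lmFit, eBayes, no covariate), after a check on simulated data. Intervals are 95%. The pathway genes and all lists were chosen with earlier results of these data known. Outside the 10 genes, the naming rule took each called gene of a pathway list, its up to 4 genes of smallest p, the 5 genes nearest to Acmsd and up to 3 markers of highest mean signal per list. Not every marker that the rule took is named, except in the lists of proximal tubule, loop of Henle, and distal tubule and collecting duct. Dhtkd1, Enpp3, Slc22a13, Sirt1, Sirt2, Sirt5, Ppargc1a, Tdo2, Ido1, Tph1, Tph2, Pkd1, Adipoq, Kcnj1, Aqp3, Slc4a1, Slc26a4, Lum, Slc7a9 and Nmnat2 fall outside the rule and were named after their values were seen.

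Arrays of the same replicate number deviated together from their group means (correlation over genes of 0.118, 0.145 and 0.541 for numbers 1, 2 and 3). This counts as pairing by the rule used here, although the labels name no shared litter or day and metformin 1 with saline 2 reached 0.299. The block is therefore named where it changes a call among the 10 genes or the other genes listed for tryptophan and NAD metabolism. The labels call the samples biological replicates. The number of arrays limits the precision. Promoters of 2 of the 10 genes are not reported here.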

Additional observations from a re-analysis of the deposited data

How the results depend on the processing

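The 7 calls among the pathway genes were made again, with the same direction, after centring on array medians, without a filter, with a stricter filter, with all clusters of a gene averaged, with trend and robust options, with array weights, and with a replicate block. Under quantile normalization there were 8. The block gave 7 pathway genes and 4373 genes in all, against 3489 without it, ended none of the 7 pathway calls or of the 23 in the other lists and added 6 to those lists, whose values stand beside the genes. Over the fits that left out 1 array, the count of genes changed ran from 842 to 3965, that of pathway genes from 1 to 7, and Acmsd minus Qprt from -1.73 to -1.13, and with the replicate block that difference was -1.47 (exact p = 0.25, the smallest 3 pairs allow). With the proximal tubule score as a covariate 1 gene and 0 pathway genes were called, and with the adipocyte score 1645 genes and 5 pathway genes; the cause was not tested, and each fit has 1 residual degree of freedom fewer.

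The sign turned in genes that had not passed the test. With the proximal tubule score these were Nadsyn1 (0.015), Nampt (0.10), Kyat3 (0.31), Aadat (0.69), Kyat1 (0.15), Nnt (0.058), Aox1 (-0.19), Nnmt (-0.19), Hnf4a (0.062), C8a (0.70) and Lpl (0.34). With the adipocyte score they were Nmnat3 (0.014), Cyp2e1 (0.18) and Aanat (-0.0029). Aox1 and Nnmt also turned without saline replicate 3, with ranges of -0.041 to 0.141 (Aox1) and -0.075 to 0.115 (Nnmt) over the fits that left out 1 array. After centring they stood at -0.052 and -0.066, and after quantile normalization at -0.044 and -0.047. With 3 arrays per group, small changes such as that of Nadsyn1 cannot be told from 0.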
